A study of Mus musculus with 4 samples.

Results

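Potassium channels let potassium leave the cell and so set the resting potential, shape the action potential and limit how fast a neuron fires. The voltage-gated families (Kcna, Kcnb, Kcnc, Kcnd and Kcnh) open on depolarisation, the inward rectifiers (Kcnj) include the channels opened by G proteins and those closed by ATP, the two-pore-domain channels (Kcnk) carry leak current, and the Kcnn and Kcnt channels are opened by internal calcium and sodium. In glia and vessel cells the same ions are carried by a partly different set of channels, with the inward rectifier Kcnj10 of astrocytes among the best known. The genes described here are the pore-forming members of these families other than Kcnq: every gene whose symbol starts with Kcna, Kcnb, Kcnc, Kcnd, Kcnh, Kcnj, Kcnk, Kcnn or Kcnt and a number, without Kcnj10, Kcnj13 and the antisense genes whose symbols end in os. The rule took 58 of the 32285 genes in the files. Of these, 35 had at least 1000 unique molecular identifiers (UMIs, 1 per captured RNA molecule) over all kept nuclei, 14 had under 100, and Kcnk15 had 0.

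RNA was counted in single nuclei of the hippocampus of female C57BL/6J mice, 8 weeks old at the start. The 4 groups were App NL-G-F knock-in mice with exercise (KI-EX), knock-in mice without exercise (KI-noEX), wild-type mice with exercise (WT-EX) and wild-type mice without exercise (WT-noEX). In the knock-in, the amyloid-beta stretch of the endogenous App gene is humanised and holds mutations from familial disease, and the gene keeps its own promoter in every cell. Exercise meant voluntary wheel running over 10 weeks. The general protocol text mentions a wheel for all samples, whereas 2 titles say that those mice had no exercise, and the groups were taken from the titles. How many animals were pooled in a library is not stated.

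Each group had 1 library, so genotype, exercise and library cannot be told apart, no difference could be set against a replicate, and no test was made. The libraries held 7203 to 11514 barcodes and 64158446 to 91676884 UMIs, and 6508 to 10213 nuclei per library were kept. Any pair of libraries shared 20 to 42 barcodes, 0.211% to 0.486% of the smaller library. Nuclei were clustered without the 58 genes, and clusters were named by marker genes, so a class name means only that nuclei were like that type. Of the 30 clusters, 9 with 4390 of the 34744 kept nuclei (12.6%) met no rule for a name, and they are outside the 12 classes described, as are the small clusters of newly formed oligodendrocytes (57 nuclei) and macrophages (34). Defining hippocampal markers were present: the summed granule-neuron markers (Prox1, Dsp and 6 others) stood at 2356 CPM in KI-EX, 2364 CPM in KI-noEX, 2723 CPM in WT-EX and 2837 CPM in WT-noEX in granule nuclei. Libraries stood apart in some classes. In KI-EX 94.9% of granule nuclei lay in 1 cluster that held few nuclei of the other 3 libraries. Among oligodendrocytes, 97.7% of KI-EX nuclei and 93.3% of KI-noEX nuclei each lay in a cluster nearly of their own, and most nuclei of both WT libraries shared another. Depth differed as well, with 7149 UMIs per granule nucleus in KI-EX, 4868 in KI-noEX, 7055 in WT-EX and 6509 in WT-noEX. The deposited counts were summed per class and library and divided by the class total and scaled to 1000000 (CPM). Intervals are 95% and cover counting error only, and a range is the lowest and highest of the 4 libraries. A capture next to the polyadenylated end gives levels that depend on the transcript, so levels of different genes are not compared.

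**Figure D1:**
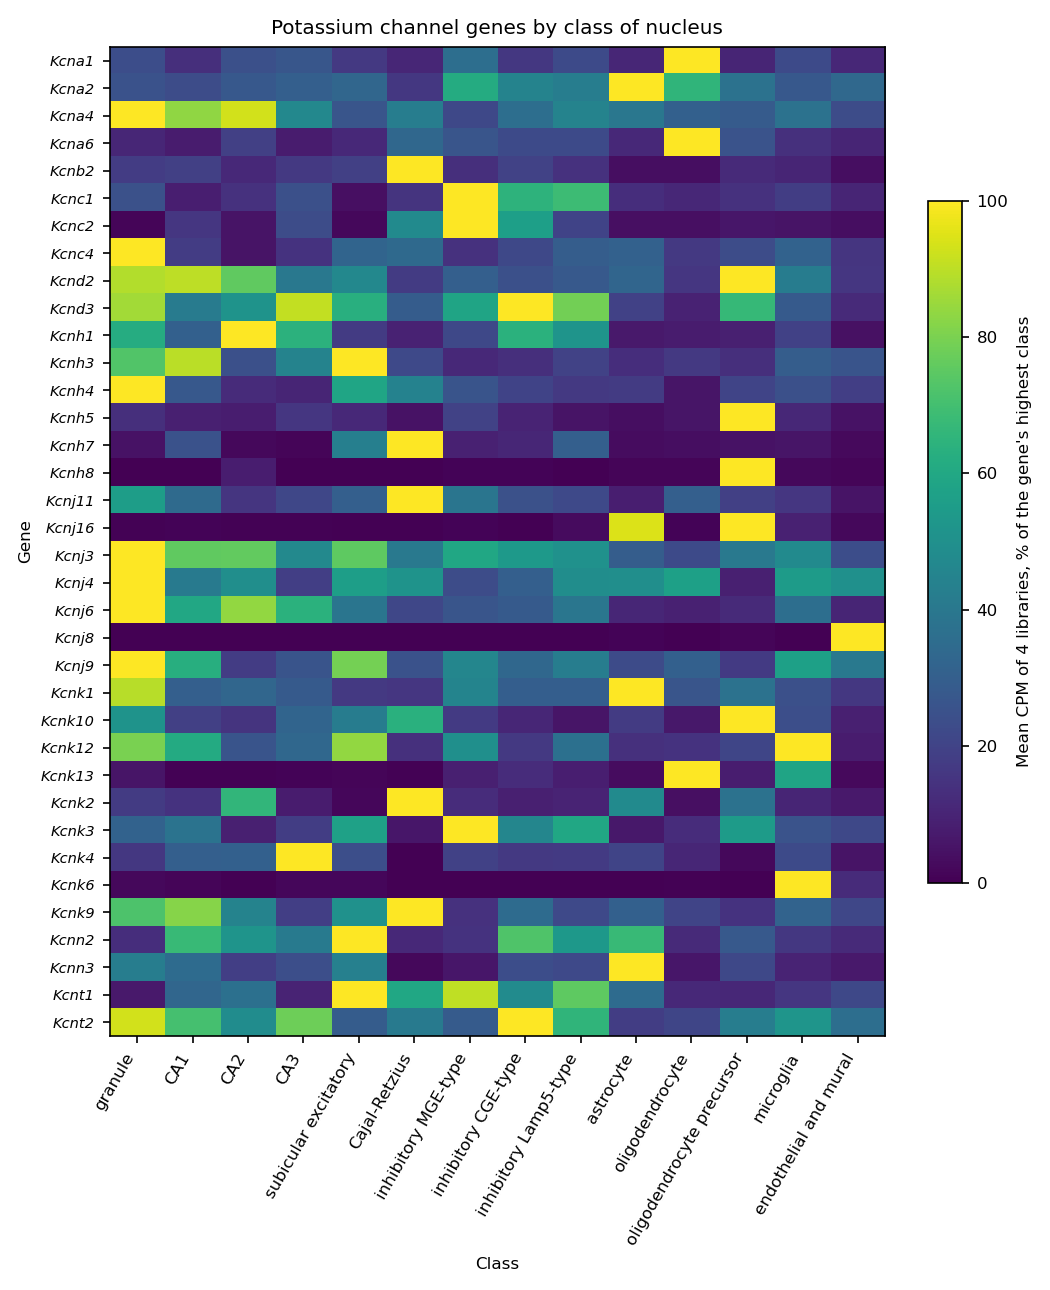
Mean CPM of the 4 libraries in each class of nucleus (columns, inhibitory neurons as 3 sub-classes), as a percent of the gene's own highest class, for members with at least 1000 UMIs and for Kcnj8, Kcnj16 and Kcnk6 (one line each, 36 shown). Kcna1, Kcna6 and Kcnk13 stand out in oligodendrocytes, Kcnh5 and Kcnh8 in oligodendrocyte precursors, Kcnb2 and Kcnh7 in Cajal-Retzius neurons and Kcnc1 in the MGE-type inhibitory neurons.

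Of the 35 members with at least 1000 UMIs, 9 had their highest mean level among the 12 classes in granule neurons, 5 in Cajal-Retzius neurons, 4 in subicular neurons and 4 in oligodendrocyte precursors. The Cajal-Retzius class was small, with 54 nuclei in KI-EX, 83 in KI-noEX, 28 in WT-EX and 47 in WT-noEX. It held 66929 UMIs in WT-EX and 183234 in KI-EX, and the 14 Kcnk genes together had 37 UMIs there in WT-EX. Low levels in that class therefore rest on few UMIs. Astrocytes, inhibitory neurons and oligodendrocytes were the top class of 3 each, CA3 neurons of 2, and CA2 neurons and microglia of 1 each. CA1 neurons were the top class of none of the 35, although they were the next class for Kcnb2, Kcnd2, Kcnh3 and Kcnk9, among others. For Kcnd3, Kcnh3, Kcnh4, Kcnj3, Kcnj4 and Kcnj9, 6 of the 35, a cluster without a name had a higher mean than the top class. The share of a member's UMIs in clusters without a name was 5.68% to 45.8%, with a median of 14.5%. These class differences are descriptions, since a class is a set of clusters from the same nuclei. CA2 neurons were 1 cluster of 331 nuclei. No cluster had that name with at least 1000 genes per nucleus, with no doublets left out or at clustering resolution 2.0.

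The Kcna family encodes low-threshold delayed rectifiers of axons and the inactivating Kcna4 channel. Kcna1 (chromosome 6, 126640397 to 126646384 on GRCm38) had its highest level in oligodendrocytes, at 191 CPM in KI-EX, 253 CPM in KI-noEX, 237 CPM in WT-EX and 179 CPM in WT-noEX. The next class was inhibitory neurons, at 52.9 to 65.9 CPM, and granule neurons held a nearly flat 50.02 to 50.9 CPM. Kcna6 gave 149 CPM in KI-EX, 110.1 CPM in KI-noEX, 157 CPM in WT-EX and 179 CPM in WT-noEX in oligodendrocytes, above the 31.9 to 59.8 CPM of Cajal-Retzius neurons and every other class. For both genes the lowest oligodendrocyte library was above the highest library of all 11 other classes. Kcna2 was highest in astrocytes at 55.4 to 84.4 CPM, but that range overlapped the 34.3 to 57.3 CPM of oligodendrocytes. Kcna4 stood at 26.8 to 34.3 CPM in granule neurons and 20.3 to 36.7 CPM in CA2 neurons, which also overlap. The other 4 members, Kcna3, Kcna5, Kcna7 and Kcna10, had 5 to 48 UMIs over all kept nuclei.

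The Kcnb genes encode delayed rectifiers of cell bodies and proximal dendrites. Kcnb2 was far higher in Cajal-Retzius neurons than in any other class, at 4366 CPM in KI-EX, 3494 CPM in KI-noEX, 5304 CPM in WT-EX and 4469.5 CPM in WT-noEX. CA1 neurons came next at 811 to 872 CPM, and oligodendrocytes had the lowest mean of the 12 classes.

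The Kcnc genes encode channels that open at high voltage and close fast, and Kcnc1 and Kcnc2 are known from fast-spiking interneurons. Kcnc1 had 239 CPM in KI-EX, 199 CPM in KI-noEX, 205 CPM in WT-EX and 248 CPM in WT-noEX in inhibitory neurons, against 54.2 to 83.9 CPM in granule neurons, the next class. Within the inhibitory nuclei the MGE-type clusters, named by Lhx6, Sox6 and Nxph1, had 240.2 to 302 CPM, whereas the CGE-type clusters had 144 to 215 CPM. Kcnc2 followed with 1503 to 2191 CPM in inhibitory neurons, overlapping the 1031 to 1629 CPM of Cajal-Retzius neurons, and with 1924 to 3069.8 CPM in the MGE-type clusters. Granule neurons had the lowest mean Kcnc2 level of all classes. Kcnc4, the inactivating member, had granule neurons on top and gave 68.1 CPM in KI-EX, 39.2 CPM in KI-noEX, 41.0 CPM in WT-EX and 53.0 CPM in WT-noEX there, and its next class, Cajal-Retzius neurons, gave 12.8 to 21.8 CPM.

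The Kcnd genes encode A-type channels that damp dendritic excitation. Kcnd2 was the member with the most UMIs, 764406 of them, and was present in every class. Oligodendrocyte precursors had 4346 CPM in KI-EX, 3919 CPM in KI-noEX, 4781 CPM in WT-EX and 4946 CPM in WT-noEX, which overlapped the 3012 to 4554 CPM of CA1 neurons and the 3050.0 to 4394 CPM of granule neurons. Kcnd3 was shared between CA3 neurons at 374 to 597 CPM and granule neurons at 328 to 658 CPM, without separation. Kcnd1 had 964 UMIs and no class above its neighbours. Kcnd3 lies across the antisense gene Kcnd3os, and use of the strand in counting was not given in the sources used here, so reads of the pair may be mixed. The same holds for Kcnh1 with Hhat, Kcnh3 with Mcrs1, Kcnh7 with Gca, and for Kcna6, Kcnh2, Kcnj6, Kcnj9, Kcnk1, Kcnk2, Kcnk3, Kcnk10, Kcnn2 and Kcnt2 with opposite-strand genes that have only clone names. Kcnd3 and Kcnk2 also overlap such a gene on the same strand.

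The Kcnh family holds the ether-a-go-go (Kcnh1, Kcnh5), erg (Kcnh2, Kcnh6, Kcnh7) and elk (Kcnh3, Kcnh4, Kcnh8) channels. Kcnh8 was highest in oligodendrocyte precursors, with 327 CPM in KI-EX, 325 CPM in KI-noEX, 379 CPM in WT-EX and 334 CPM in WT-noEX. CA2 neurons came next of the 12 classes at 21.5 to 35.8 CPM. Of its 2003 UMIs, 918 (45.8%) were in clusters without a name, 831 of them in 1 cluster of 850 nuclei led by Sntb1, Rai14 and Myocd, where its level was 111 CPM in KI-EX, 110.1 CPM in KI-noEX, 133 CPM in WT-EX and 116 CPM in WT-noEX. Kcnh5 shared that top class with 178 CPM in KI-EX, 189 CPM in KI-noEX, 271 CPM in WT-EX and 215 CPM in WT-noEX, and CA3 neurons followed at 28.9 to 38.7 CPM. In both genes the precursors lay above all 11 other classes in every library, but 1 cluster without a name had 199 CPM in KI-EX, 209.9 CPM in KI-noEX, 216 CPM in WT-EX and 196 CPM in WT-noEX of Kcnh5, about the level of the precursors. Kcnh7 was highest in Cajal-Retzius neurons at 5097 CPM in KI-EX, 4944 CPM in KI-noEX, 7291 CPM in WT-EX and 6402 CPM in WT-noEX, then in subicular neurons at 1606 to 2994 CPM, and CA3 neurons had its lowest mean. Kcnh1 had its top mean in CA2 neurons at 233 to 606 CPM, overlapping CA3 neurons at 161 to 332 CPM. Kcnh3 did not separate subicular neurons, at 44.4 to 123 CPM, from CA1 neurons, at 42.5 to 102 CPM. Kcnh4 was highest in granule neurons at 6.74 to 25.1 CPM, with subicular neurons at 3.26 to 14.1 CPM. Kcnh2 and Kcnh6 had 689 and 346 UMIs, each with its top mean among the 12 classes in inhibitory neurons.

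Among the inward rectifiers, the G-protein-gated subunits Kcnj3, Kcnj6 and Kcnj9 all had granule neurons as their top class. Kcnj6 stood there at 589 to 802 CPM and at 490.4 to 681 CPM in CA2 neurons. Kcnj3 had 399 to 782 CPM in granule neurons and 302 to 557 CPM in CA2 neurons, and Kcnj9 had 33.3 to 78.1 CPM in granule neurons and 27.8 to 67.5 CPM in subicular neurons. None of the 3 separated its top class from the next. Kcnj5, the remaining G-protein-gated subunit, had 46 UMIs in all, with 25.6 to 49.1 CPM in Cajal-Retzius neurons. The strong rectifier Kcnj4 had 14.4 to 20.7 CPM in granule neurons, and Kcnj11, a pore subunit of ATP-sensitive channels, had 4.54 to 8.09 CPM there. Its Cajal-Retzius mean was higher but ranged from 0 to 16.4 CPM. Kcnj8, the other ATP-sensitive pore subunit and a known marker of pericytes, was highest in endothelial and mural nuclei, with 114 CPM in KI-EX, 84.6 CPM in KI-noEX, 141 CPM in WT-EX and 135 CPM in WT-noEX, and the KI-noEX value is 3 UMIs in 14 nuclei. Of its 233 UMIs, 116 were in this class, 81 in nuclei left out of it for their high UMI counts and 10 in clusters without a name. The next class, oligodendrocyte precursors, reached 5.65 CPM. Kcnj16, which pairs with Kcnj10 in astrocytes, had 20.4 to 35.1 CPM in oligodendrocyte precursors and 15.6 to 37.0 CPM in astrocytes. Kcnj2 and Kcnj12 had 791 and 793 UMIs without a separate top class, and Kcnj1, Kcnj14 and Kcnj15 had 3, 51 and 4.

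The two-pore-domain family was split between neurons and glia. Kcnk13, a halothane-inhibited leak channel known for its role in microglia, had 236 CPM in KI-EX, 202 CPM in KI-noEX, 339 CPM in WT-EX and 306 CPM in WT-noEX in oligodendrocytes. Microglia came next with 198 CPM in KI-EX, 104 CPM in KI-noEX, 164 CPM in WT-EX and 166 CPM in WT-noEX, and CA2 neurons had the lowest mean. Kcnk13 was higher in oligodendrocytes than in microglia within each library. Kcnk6 was highest in microglia at 18.2 to 41.0 CPM, from 135 UMIs in the 12 classes, and Kcnk12, the close relative of Kcnk13, had 26.7 to 58.7 CPM there and 18.4 to 39.4 CPM in subicular neurons. Another 160 Kcnk12 UMIs were in microglial nuclei left out for their high UMI counts. In WT-EX 29 microglial nuclei were kept and 63 were left out. The mechanically and lipid-gated channels differed in place. Kcnk2 stood at 273 to 466 CPM in Cajal-Retzius neurons and 169.5 to 279 CPM in CA2 neurons, Kcnk10 at 162 to 229 CPM in oligodendrocyte precursors, and Kcnk4 at 9.14 to 28.4 CPM in CA3 neurons, with CA2 neurons next at 4.43 to 6.09 CPM. Kcnk4 overlaps Catsperz on the same strand, so its reads may include that gene. Of the acid-sensitive channels, Kcnk3 had 12.4 to 28.5 CPM in inhibitory neurons and 9.48 to 25.7 CPM in subicular neurons, and Kcnk9 had 44.7 to 74.7 CPM in Cajal-Retzius neurons and 42.9 to 54.7 CPM in CA1 neurons. Kcnk1 was near even in astrocytes, at 72.3 to 78.1 CPM, and granule neurons, at 53.5 to 82.2 CPM. Kcnk5, Kcnk7, Kcnk15, Kcnk16 and Kcnk18 had 0 to 64 UMIs.

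The calcium-activated Kcnn channels produce the afterhyperpolarisation. Kcnn2 had 685 CPM in KI-EX, 693 CPM in KI-noEX, 727 CPM in WT-EX and 758 CPM in WT-noEX in subicular neurons, and astrocytes followed at 353 to 589.8 CPM. Kcnn3 was highest in astrocytes, with 203 CPM in KI-EX, 96.4 CPM in KI-noEX, 132 CPM in WT-EX and 114 CPM in WT-noEX, against 41.2 to 89.3 CPM in subicular neurons. Kcnn1 had 897 UMIs and Kcnn4 had 31. The sodium-activated channels had different classes on top. Kcnt1 had 143 CPM in KI-EX, 38.2 CPM in KI-noEX, 53.6 CPM in WT-EX and 74.0 CPM in WT-noEX in subicular neurons and 34.7 to 95.4 CPM in inhibitory neurons, and granule neurons had its lowest mean. Kcnt2 had granule neurons on top, at 318 to 544 CPM, and CA3 neurons next at 268 to 436 CPM. Within inhibitory neurons the CGE-type clusters held 393 to 531 CPM of Kcnt2 and the MGE-type clusters 119 to 148 CPM.

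**Figure D2:**
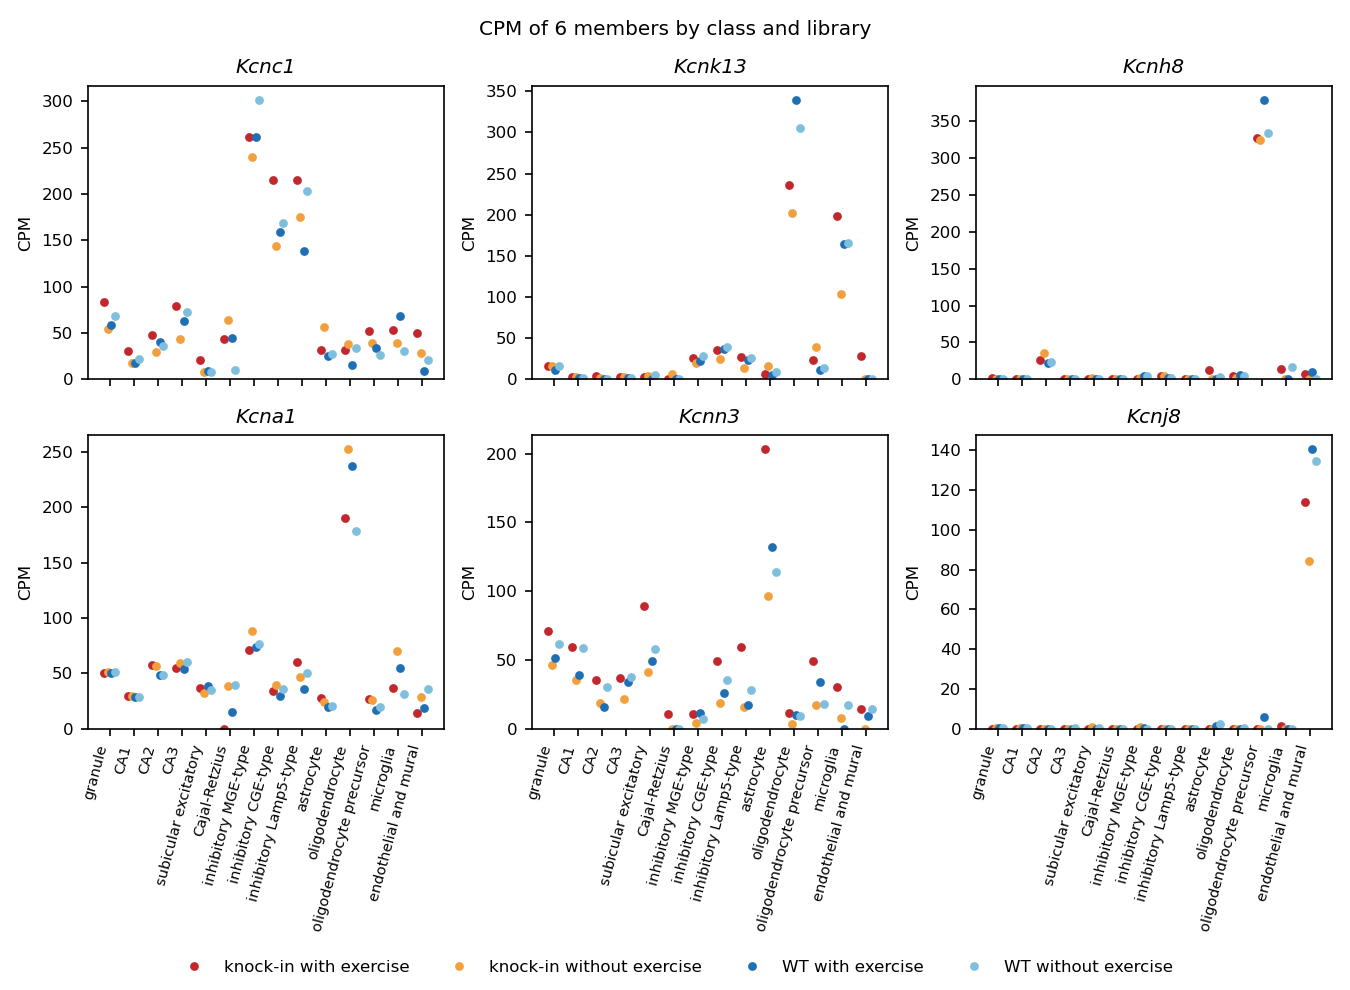
CPM of Kcnc1, Kcnk13, Kcnh8, Kcna1, Kcnn3 and Kcnj8 by nucleus class, 1 point per library, with inhibitory neurons as 3 sub-classes and the libraries KI-EX, KI-noEX, WT-EX and WT-noEX in that order. In Kcnk13, Kcnh8, Kcna1, Kcnn3 and Kcnj8 all 4 points of the top class lie above every other point, and Kcnc1 is highest in the MGE-type neurons.

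Kcnh8, Kcnk13 and Kcnj8 each had 1 glial or vascular class above the 11 other classes, as did Kcna1, Kcna6, Kcnh5, Kcnk5, Kcnk6 and Kcnn3. For Kcnh8, Kcnk13 and Kcnj8 alone, chosen from among them, the 250 bases upstream of the RefSeq start sites are shown (GRCm38.p6, gene strand, 5′ to 3′). Capitals mark CG dinucleotides.
Kcnh8 promoter, chr17:52602459-52602708, strand +: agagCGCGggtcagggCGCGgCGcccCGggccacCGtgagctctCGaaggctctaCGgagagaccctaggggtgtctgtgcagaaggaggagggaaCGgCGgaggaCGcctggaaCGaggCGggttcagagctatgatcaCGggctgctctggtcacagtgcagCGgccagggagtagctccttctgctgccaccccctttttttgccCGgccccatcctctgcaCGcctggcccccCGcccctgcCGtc
Kcnk13 promoter, chr12:99964249-99964498, strand +: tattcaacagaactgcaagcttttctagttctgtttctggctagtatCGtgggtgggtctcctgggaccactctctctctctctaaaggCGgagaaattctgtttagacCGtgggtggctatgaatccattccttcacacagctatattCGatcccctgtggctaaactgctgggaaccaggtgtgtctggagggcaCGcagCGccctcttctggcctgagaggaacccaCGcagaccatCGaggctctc
Kcnj8 promoter, chr6:142571615-142571864, strand -: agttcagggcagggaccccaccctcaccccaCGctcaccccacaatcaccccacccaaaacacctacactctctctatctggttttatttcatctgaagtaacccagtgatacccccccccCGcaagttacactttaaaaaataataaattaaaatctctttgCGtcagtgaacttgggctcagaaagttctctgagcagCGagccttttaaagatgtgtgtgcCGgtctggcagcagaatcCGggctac
The Kcnh8 stretch held 20 CG dinucleotides, the Kcnk13 stretch 8 and the Kcnj8 stretch 6. Over the 57 RefSeq promoters that matched 45 of the 58 genes the median was 8 per 250 bases, against 6 over all 32851 promoters in the table. The letters TATAAA, searched on the gene strand alone, were in none of the 3 stretches, in 2 of the 57 member promoters (3.51%) and in 7.59% of all promoters. The files hold no binding or methylation data for these stretches.

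Members with at least 50 UMIs numbered 31 in oligodendrocytes, 20 in astrocytes, 19 in oligodendrocyte precursors, 18 in microglia and 10 in endothelial and mural nuclei. In oligodendrocytes, besides Kcna1, Kcna6 and Kcnk13, Kcna2, Kcna4, Kcnb2, Kcnc1, Kcnc2, Kcnc4, Kcnd2, Kcnd3, Kcnh1, Kcnh3, Kcnh5, Kcnh7, Kcnj2, Kcnj3, Kcnj4, Kcnj6, Kcnj9, Kcnk1, Kcnk10, Kcnk12, Kcnk2, Kcnk9, Kcnn2, Kcnn3, Kcnt1 and Kcnt2 lay between 3.65 CPM (Kcnn3) and 1387 CPM (Kcnd2) there. Astrocytes held Kcnn3, Kcnn2, Kcnk1, Kcna2, Kcnj16 and Kcnk2, the last at 128 to 225 CPM, and the remaining astrocyte members Kcnb2, Kcnc1, Kcnc2, Kcnd2, Kcnd3, Kcnh1, Kcnh7, Kcnj3, Kcnj6, Kcnk10, Kcnt1 and Kcnt2 lay between 7.92 CPM (Kcnh1) and 1912 CPM (Kcnd2) there. Besides Kcnd2, Kcnh5, Kcnh8 and Kcnk10, the precursor members Kcna6, Kcnb2, Kcnc1, Kcnc2, Kcnd3, Kcnh1, Kcnh7, Kcnj3, Kcnj6, Kcnk2, Kcnn2, Kcnn3 and Kcnt2 lay between 13.2 CPM (Kcnh1) and 566 CPM (Kcnb2) there. Next to Kcnk13 and Kcnk12, the microglial members Kcna1, Kcnb2, Kcnc1, Kcnc2, Kcnd2, Kcnd3, Kcnh1, Kcnh7, Kcnj3, Kcnj6, Kcnk10, Kcnk2, Kcnn2 and Kcnt2 lay between 20.7 CPM (Kcnk2) and 2228 CPM (Kcnd2) there. Besides Kcnj8, the vascular members Kcnb2, Kcnc2, Kcnd2, Kcnd3, Kcnh7, Kcnj3, Kcnj6, Kcnn2 and Kcnt2 lay between 28.2 CPM (Kcnb2) and 1220.3 CPM (Kcnd2) there. Neuronal markers were counted in these classes too. The summed CA3 markers were 494 CPM in KI-EX, 197 CPM in KI-noEX, 261 CPM in WT-EX and 315 CPM in WT-noEX in oligodendrocytes, and the summed inhibitory markers were 605 CPM in KI-EX, 542 CPM in KI-noEX, 273 CPM in WT-EX and 321 CPM in WT-noEX in microglia. Kcnc2, which peaked in inhibitory neurons, reached 54.7 to 178 CPM in microglia. The part of free neuronal RNA in the glial levels of neuronal members was not tested.

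Across the 4 groups KI-EX was the library most often highest and KI-noEX the one most often lowest. Of the members with at least 100 UMIs in a class, KI-EX was the highest of the 4 libraries for 24 of 37 in granule neurons (64.9%, against 44.4% of all genes) and for 26 of 38 in CA1 neurons (68.4%, against 47.5%). In CA3 and in inhibitory neurons it was the highest for 18 of 33 each (54.5%, against 45.7% and 47% of all genes). KI-noEX was the lowest library for 19 of 37, 19 of 38, 19 of 33 and 21 of 33 members in granule, CA1, CA3 and inhibitory neurons, shares of 51.4%, 50%, 57.6% and 63.6%, where all genes gave 31.1%, 31.8%, 37.2% and 33.3%. The 2 comparisons that contain KI-EX share that library, and each of the other libraries likewise enters 2 comparisons, so the 4 comparisons are not separate pieces of evidence. A member was counted as past the fold at 1.5-fold or more, a log2 ratio of 0.585, given at least 50 UMIs over both libraries.

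**Figure D3:**
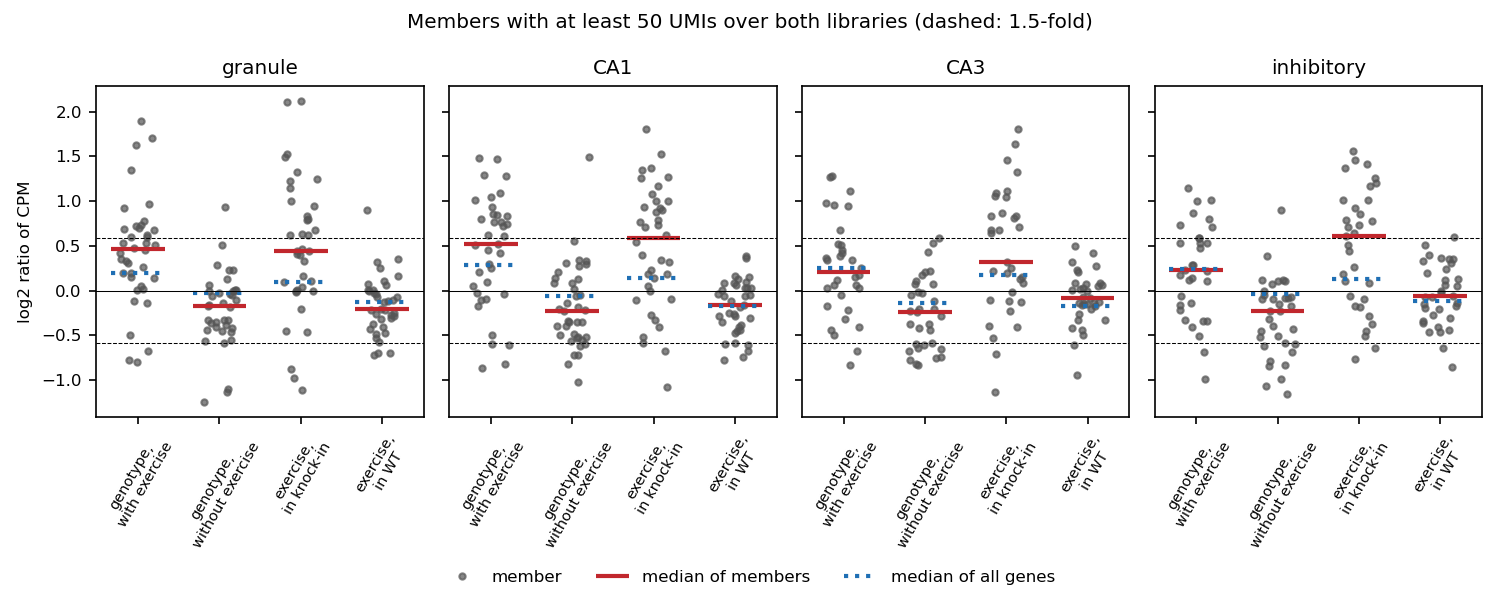
Log2 ratio of class CPM for each measured member (1 point each) in granule, CA1, CA3 and inhibitory neurons for the 4 comparisons, with a solid bar at the member median, a dotted bar at the median over all genes and dashed lines at 1.5-fold. In granule and CA1 neurons the member medians were 0.44 and 0.58 for exercise in the knock-in and -0.20 and -0.16 for exercise in WT.

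Exercise in the knock-in, KI-EX over KI-noEX, had the most members past the fold in granule, CA3 and inhibitory neurons. In granule neurons, 17 of 37 were past the fold on the higher side and 3 on the lower, where all genes gave 22.5% and 19.6% (42.1% either way). Granule members had a median log2 ratio of 0.44, and all genes one of 0.094. In CA1 neurons, 19 of 38 were past the fold on the higher side and 3 on the lower, where all genes gave 25.8% and 16.7% (42.4% either way). CA1 members had a median log2 ratio of 0.58, and all genes one of 0.14. In both classes the members' share was above that of all genes on the higher side and below it on the lower. In CA3 neurons, 16 of 33 were past the fold on the higher side and 2 on the lower, where all genes gave 27.5% and 15% (42.5% either way). CA3 members had a median log2 ratio of 0.32, and all genes one of 0.18. In inhibitory neurons, 17 of 33 were past the fold on the higher side and 2 on the lower, where all genes gave 23.7% and 16.2% (39.9% either way). Inhibitory members had a median log2 ratio of 0.62, and all genes one of 0.13. The shares in these classes stood to all genes in the same way. With nuclei thinned to 1500 UMIs the counts in both directions together were 10 in CA3 and 7 in inhibitory neurons, instead of 18 and 19. Shares of all genes were not recalculated after thinning. Of 30 members measured in all 4 neuron classes, 10 were past the fold on the higher side in each of them (14.5% of all genes were) and 1 on the lower side (9.6%). Among the 10 were Kcnc4, Kcnd3, Kcnh1, Kcnh3, Kcnj9, Kcnk3, Kcnn3 and Kcnt1, and the 1 was Kcnj3. The 4 classes come from the same 2 libraries, so this repetition is not independent.

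Kcnt1, the sodium-activated channel on chromosome 2, 25863734 to 25918273, had one of the 3 highest ratios in each of the 4 neuron classes. Granule neurons held 10.9 CPM in KI-EX, 2.51 CPM in KI-noEX, 3.52 CPM in WT-EX and 3.70 CPM in WT-noEX, for a log2 ratio of 2.11 (95% interval 1.56 to 2.70) between KI-EX and KI-noEX. CA1 neurons held 46.0 CPM in KI-EX, 13.1 CPM in KI-noEX, 16.6 CPM in WT-EX and 26.6 CPM in WT-noEX, for 1.81 (95% interval 1.55 to 2.07), and CA3 neurons 13.8 CPM in KI-EX, 3.94 CPM in KI-noEX, 6.34 CPM in WT-EX and 6.97 CPM in WT-noEX, for 1.81 (95% interval 1.19 to 2.46). In inhibitory neurons the levels were 95.4 CPM in KI-EX, 34.7 CPM in KI-noEX, 43.2 CPM in WT-EX and 59.7 CPM in WT-noEX, for 1.46 (95% interval 1.21 to 1.72). KI-EX was the highest and KI-noEX the lowest library in all 4 classes, with both WT libraries between them. Kcnj9, a G-protein-gated subunit on chromosome 1, 172320501 to 172329318, had 53.9 CPM in KI-EX, 20.8 CPM in KI-noEX, 22.2 CPM in WT-EX and 26.6 CPM in WT-noEX in CA1 neurons, a log2 ratio of 1.37 (95% interval 1.16 to 1.58). The CA3 ratio of Kcnj9 was 1.46 (95% interval 1.02 to 1.93) and the granule ratio 1.23 (95% interval 1.07 to 1.39).

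Kcnc2 in granule neurons, the class where it was lowest, had 77.2 CPM in KI-EX, 17.8 CPM in KI-noEX, 23.6 CPM in WT-EX and 38.2 CPM in WT-noEX, a log2 ratio of 2.12 (95% interval 1.91 to 2.33). The summed inhibitory markers in the same nuclei were also highest in KI-EX and next in WT-noEX, at 231 CPM in KI-EX, 105 CPM in KI-noEX, 92.9 CPM in WT-EX and 142 CPM in WT-noEX, and their part in this difference was not tested. In inhibitory neurons themselves Kcnc2 stood lower in KI-EX, at 1503 CPM in KI-EX, 1946 CPM in KI-noEX, 2144 CPM in WT-EX and 2191 CPM in WT-noEX. Kcnh4, an elk channel, had 25.1 CPM in KI-EX, 8.68 CPM in KI-noEX, 6.74 CPM in WT-EX and 10.9 CPM in WT-noEX in granule neurons, a log2 ratio of 1.53 (95% interval 1.23 to 1.85), and its CA1 ratio was 1.53 (95% interval 0.88 to 2.22) from 78 UMIs in KI-EX and 27 UMIs in KI-noEX. Kcnk4, a lipid-gated leak channel, had 28.4 CPM in KI-EX, 9.14 CPM in KI-noEX, 14.7 CPM in WT-EX and 13.9 CPM in WT-noEX in CA3 neurons, a log2 ratio of 1.64 (95% interval 1.23 to 2.06), which was 1.02 at clustering resolution 2.0. A different set of nuclei made up CA3 neurons at that resolution. In inhibitory neurons the highest ratios after or beside Kcnt1 were those of Kcnn3 at 1.56 (95% interval 1.10 to 2.04) and Kcnc4 at 1.41 (95% interval 0.79 to 2.07). Kcnn3 had 30.7 CPM in KI-EX, 10.4 CPM in KI-noEX, 16.9 CPM in WT-EX and 18.6 CPM in WT-noEX there.

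Members with high counts stood past the fold on either side. Kcnd3, an A-type channel, had 658 CPM in KI-EX, 328 CPM in KI-noEX, 404 CPM in WT-EX and 436 CPM in WT-noEX in granule neurons, a log2 ratio of 1.004 (95% interval 0.95 to 1.06) between KI-EX and KI-noEX. Kcnh3 had 102 CPM in KI-EX, 42.5 CPM in KI-noEX, 49.2 CPM in WT-EX and 74.9 CPM in WT-noEX in CA1 neurons, for 1.26 (95% interval 1.11 to 1.41). In both genes KI-EX was highest and KI-noEX lowest, and WT-noEX was above WT-EX. Kcnj3, the G-protein-gated subunit on chromosome 2, 55435970 to 55598145, went the other way. It had 399 CPM in KI-EX, 782 CPM in KI-noEX, 695 CPM in WT-EX and 643 CPM in WT-noEX in granule neurons, for -0.97 (95% interval -1.02 to -0.93), and 290.2 CPM in KI-EX, 611 CPM in KI-noEX, 514 CPM in WT-EX and 486 CPM in WT-noEX in CA1 neurons, for -1.07 (95% interval -1.13 to -1.02). The CA3 ratio of Kcnj3 was -1.13 (95% interval -1.22 to -1.04) and the inhibitory ratio -0.77 (95% interval -0.88 to -0.66), or -0.46 with nuclei thinned to 1500 UMIs. KI-EX was the lowest library for Kcnj3 in all 4 classes. Its partner subunit Kcnj6 had 802 CPM in KI-EX, 589 CPM in KI-noEX, 728 CPM in WT-EX and 651 CPM in WT-noEX in granule neurons and a ratio of 0.44 (95% interval 0.40 to 0.49), so the subunits of the G-protein-gated channel did not share a direction.

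Other members were lower in KI-EX than in KI-noEX in some classes. Kcnt2, the second sodium-activated channel, had ratios of -0.67 (95% interval -0.74 to -0.61) in CA1 and -0.70 (95% interval -0.79 to -0.62) in CA3 neurons, opposite in sign to Kcnt1. Kcnt2 in CA1 neurons stood at 248 CPM in KI-EX, 395 CPM in KI-noEX, 349 CPM in WT-EX and 319.7 CPM in WT-noEX. Kcnd2 had 3012 CPM in KI-EX, 4528 CPM in KI-noEX, 4554 CPM in WT-EX and 4095 CPM in WT-noEX in CA1 neurons, where its ratio of -0.59 (95% interval -0.61 to -0.57) was just past the fold, while Kcnd3 was on the higher side. Kcnh5 gave -1.11 (95% interval -1.32 to -0.90) and Kcnk2 -0.87 (95% interval -0.995 to -0.75) in granule neurons. Kcnk2 there had 51.0 CPM in KI-EX, 93.2 CPM in KI-noEX, 49.0 CPM in WT-EX and 48.9 CPM in WT-noEX, so it was KI-noEX that differed from the other 3 libraries. The Kcnk2 ratio in inhibitory neurons was -0.64 (95% interval -0.92 to -0.36).

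**Figure D4:**
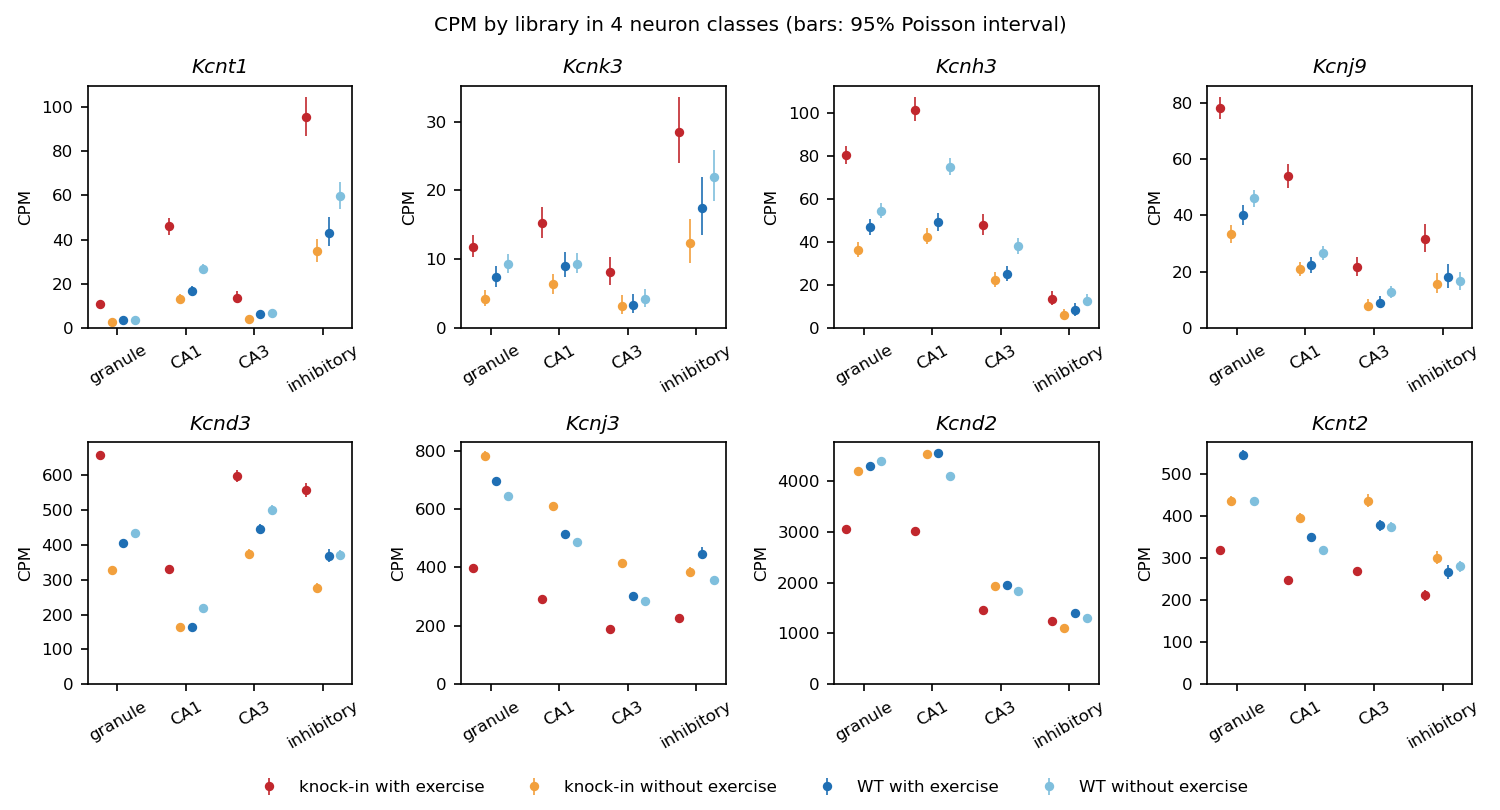
CPM of Kcnt1, Kcnk3, Kcnh3, Kcnj9, Kcnd3, Kcnj3, Kcnd2 and Kcnt2 in granule, CA1, CA3 and inhibitory neurons, 1 point per library with exact Poisson 95% intervals, KI-EX, KI-noEX, WT-EX and WT-noEX in that order. KI-EX is the highest library of Kcnt1 and the lowest of Kcnj3 in all 4 classes.

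Genotype with exercise, KI-EX over WT-EX, shares the KI-EX library with the comparison above. In granule neurons, 15 of 38 were past the fold on the higher side and 3 on the lower, where all genes gave 22.4% and 7.58% (30% either way). Granule members had a median log2 ratio of 0.46, and all genes one of 0.20. In CA1 neurons, 18 of 37 were past the fold on the higher side and 4 on the lower, where all genes gave 28.7% and 5.83% (34.5% either way). CA1 members had a median log2 ratio of 0.52, and all genes one of 0.28. The members' share on the higher side was above that of all genes in both classes with this scaling. With median-of-ratios factors the counts in both directions together were 11 in granule and 14 in CA1 neurons, instead of 18 and 22, and with TMM factors the granule count was 10. Shares of all genes were not recalculated with these factors, which shift every gene of a class alike. In CA3 neurons, 7 of 32 were past the fold on the higher side and 2 on the lower, where all genes gave 26.2% and 5.52% (31.7% either way). CA3 members had a median log2 ratio of 0.21, and all genes one of 0.25. In inhibitory neurons, 9 of 32 were past the fold on the higher side and 2 on the lower, where all genes gave 24.3% and 5.17% (29.5% either way). Inhibitory members had a median log2 ratio of 0.23, and all genes one of 0.24. Here the share on the higher side was below that of all genes in CA3 and near it in inhibitory neurons. The member median was close to that of all genes in both, and with median-of-ratios scaling it was -0.012 in CA3 and 0.020 in inhibitory neurons. Medians of all genes were not calculated with that scaling. Of 29 members measured in all 4 classes, 5 were past the fold on the higher side in each (among them Kcnh3, Kcnj9, Kcnk3 and Kcnt1), against 11.7% of all genes, and Kcnj3 on the lower side, against 1.88%.

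The highest granule ratios for genotype with exercise were 1.90 (95% interval 1.57 to 2.24) for Kcnh4, 1.71 (95% interval 1.53 to 1.89) for Kcnc2 and 1.62 (95% interval 1.16 to 2.11) for Kcnt1. In CA1 neurons they were 1.48 (95% interval 1.04 to 1.93) for Kcnc4, 1.47 (95% interval 1.23 to 1.71) for Kcnt1 and 1.30 (95% interval 0.67 to 1.95) for Kcnh4. CA3 neurons had Kcnj9 at 1.28 (95% interval 0.87 to 1.70), Kcnt1 at 1.12 (95% interval 0.62 to 1.63) and Kcnk4 at 0.95 (95% interval 0.63 to 1.29). With more variable genes the CA3 ratio of Kcnt1 was 2.64, and at clustering resolution 2.0 those of Kcnk4 and Kcnj3 were 0.49 and -0.50, under the fold. These values come from other sets of nuclei. In the main clustering CA3 neurons were 1 cluster of 2668 nuclei, with mossy-cell markers next in score. With more variable genes 1489 nuclei were named CA3, and 1278 with CA3 and mossy-cell markers stayed unnamed. At resolution 2.0 the CA3 clusters held 1341, 658 and 75 nuclei. Inhibitory neurons had Kcnt1 at 1.14 (95% interval 0.89 to 1.40) and Kcnh2, an erg channel, at 1.01 (95% interval 0.39 to 1.66). Kcnc4 in CA1 neurons rested on 171 UMIs in KI-EX and 58 in WT-EX, and Kcnh2 in inhibitory neurons on 77 in KI-EX and 31 in WT-EX.

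On the lower side, Kcnj3 had genotype ratios with exercise of -0.99 (95% interval -1.10 to -0.88) in inhibitory, -0.82 (95% interval -0.88 to -0.76) in CA1, -0.68 (95% interval -0.77 to -0.59) in CA3 and -0.80 (95% interval -0.85 to -0.76) in granule neurons. Kcnc2, higher in KI-EX granule neurons, was lower in KI-EX pyramidal neurons. CA1 neurons held 289 CPM in KI-EX, 382 CPM in KI-noEX, 526 CPM in WT-EX and 503 CPM in WT-noEX of it, a ratio of -0.86 (95% interval -0.92 to -0.80) between KI-EX and WT-EX, and CA3 neurons 437 CPM in KI-EX, 580.5 CPM in KI-noEX, 776 CPM in WT-EX and 672 CPM in WT-noEX, a ratio of -0.83 (95% interval -0.89 to -0.77). Here both knock-in libraries lay below both WT libraries. Without exercise the Kcnc2 ratio was -0.39 (95% interval -0.45 to -0.34) in CA1 and -0.21 (95% interval -0.27 to -0.16) in CA3 neurons, under the fold in both. Kcnh7, an erg channel, had -0.61 (95% interval -0.64 to -0.58) in CA1 and -0.68 (95% interval -0.75 to -0.61) in inhibitory neurons. Kcnt2 had -0.77 (95% interval -0.82 to -0.72) and Kcnh5 -0.67 (95% interval -0.90 to -0.45) in granule neurons.

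Genotype without exercise, KI-noEX over WT-noEX, had more members past the fold on the lower than on the higher side in each of the 4 classes. In granule neurons, 1 of 37 was past the fold on the higher side and 4 on the lower, where all genes gave 13.8% and 6.8% (20.6% either way). Granule members had a median log2 ratio of -0.17, and all genes one of -0.030. In CA1 neurons, 1 of 39 was past the fold on the higher side and 6 on the lower, where all genes gave 13% and 10.2% (23.2% either way). CA1 members had a median log2 ratio of -0.23, and all genes one of -0.061. The members' share was below that of all genes on the higher side and above it on the lower in both classes. In CA3 neurons, 1 of 33 was past the fold on the higher side and 11 on the lower, where all genes gave 10.4% and 14.7% (25.1% either way). CA3 members had a median log2 ratio of -0.24, and all genes one of -0.13. In inhibitory neurons, 1 of 34 was past the fold on the higher side and 9 on the lower, where all genes gave 12.5% and 7.77% (20.3% either way). Inhibitory members had a median log2 ratio of -0.23, and all genes one of -0.043. The same held here, with the CA3 and inhibitory shares on the lower side over 2 times those of all genes. The counts in both directions together depended on settings, with 7 instead of 12 in CA3 neurons under median-of-ratios factors and 5 instead of 10 in inhibitory neurons with nuclei thinned to 1500 UMIs, where the CA3 median was 0.045. Shares and medians of all genes were not recalculated under these settings. After thinning, Kcnh3, Kcnk3 and Kcnn3 in inhibitory neurons fell under the minimum of UMIs and were not counted. Kcnh3 was past the fold on the lower side in all 4 classes, as 1 of 31 members measured in each, where all genes gave 2.15%. Its ratio was -1.07 (95% interval -1.71 to -0.46) in inhibitory, -0.82 (95% interval -0.97 to -0.67) in CA1, -0.77 (95% interval -1.05 to -0.50) in CA3 and -0.59 (95% interval -0.75 to -0.43) in granule neurons. None of the 31 was past it on the higher side in all 4 classes (all genes 5.37%).

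Kcnt1 had genotype ratios without exercise of -1.02 (95% interval -1.29 to -0.76) in CA1 and -0.82 (95% interval -1.51 to -0.18) in CA3 neurons. Kcnn3, a calcium-activated channel, had -0.72 (95% interval -0.88 to -0.56), -0.84 (95% interval -1.12 to -0.56) and -0.84 (95% interval -1.33 to -0.36) in CA1, CA3 and inhibitory neurons, and the CA3 value was -1.67 with more variable genes. Its CA1 level was 59.1 CPM in KI-EX, 35.4 CPM in KI-noEX, 38.8 CPM in WT-EX and 58.3 CPM in WT-noEX. CA3 neurons were a different set of nuclei with more variable genes. Kcnk3, an acid-sensitive leak channel, had -1.13 (95% interval -1.61 to -0.68) in granule and -0.83 (95% interval -1.28 to -0.39) in inhibitory neurons. Granule neurons also had Kcnd1 at -1.24 (95% interval -1.996 to -0.55), from 22 UMIs in KI-noEX and 80 in WT-noEX, and Kcnc2 at -1.10 (95% interval -1.33 to -0.88). On the higher side stood Kcnk2, at 0.93 (95% interval 0.80 to 1.06) in granule and 0.90 (95% interval 0.63 to 1.18) in inhibitory neurons, and Kcna4 at 0.59 (95% interval 0.23 to 0.96) in CA3 neurons. Kcna4, the inactivating Kcna member, had 12.7 CPM in KI-EX, 18.4 CPM in KI-noEX, 14.3 CPM in WT-EX and 12.2 CPM in WT-noEX there, and its ratio lay under the fold at 0.15 to 0.49 with 4 other settings of filter and clustering.

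Exercise in WT, WT-EX over WT-noEX, had the fewest members past the fold in each of the 4 classes. In granule neurons, 1 of 37 was past the fold on the higher side and 3 on the lower, where all genes gave 2.13% and 6.57% (8.69% either way). Granule members had a median log2 ratio of -0.20, and all genes one of -0.12. In CA1 neurons, 0 of 37 were past the fold on the higher side and 6 on the lower, where all genes gave 1.18% and 9.39% (10.6% either way). CA1 members had a median log2 ratio of -0.16, and all genes one of -0.17. The members' share on the lower side was above that of all genes in CA1 and near it in granule neurons with this scaling. The CA1 medians of members and of all genes were close. With TMM factors the CA1 count in both directions together was 2 instead of 6, and it fell with median-of-ratios factors too. Shares of all genes were not recalculated with either, so whether the CA1 share stayed above theirs is not known. In CA3 neurons, 0 of 33 were past the fold on the higher side and 2 on the lower, where all genes gave 1.75% and 11.2% (13% either way). CA3 members had a median log2 ratio of -0.084, and all genes one of -0.18. In inhibitory neurons, 1 of 34 was past the fold on the higher side and 2 on the lower, where all genes gave 1.82% and 8.34% (10.2% either way). Inhibitory members had a median log2 ratio of -0.062, and all genes one of -0.11. On the lower side CA3 and inhibitory members were below all genes. The direction of these medians depended on the scaling: with median-of-ratios factors they were 0.051 in inhibitory, 0.013 in CA1 and 0.089 in CA3 neurons. Medians of all genes were not recalculated with these factors. No member was past the fold in all 4 classes in either direction, as 0 of 31 (all genes 0.0486% higher and 1.32% lower). The ratios past the fold with at least 100 UMIs on the lower side were those of Kcnc2 at -0.69 (95% interval -0.89 to -0.50) and Kcnh4 at -0.70 (95% interval -1.07 to -0.34) in granule neurons. CA1 neurons added Kcnc4 at -0.77 (95% interval -1.23 to -0.33), Kcnd1 at -0.74 (95% interval -1.35 to -0.15) and Kcnt1 at -0.68 (95% interval -0.93 to -0.44) as their 3 lowest. Kcnh3 had -0.60 (95% interval -0.86 to -0.36) in CA3 and -0.64 (95% interval -1.27 to -0.039) in inhibitory neurons. Kcnj2, a strong inward rectifier, was on the higher side in granule neurons at 0.90 (95% interval 0.42 to 1.38), from 88 UMIs in WT-EX and 67 in WT-noEX.

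The genotype comparisons with and without exercise share no library, and neither do the 2 exercise comparisons. No member was past the fold the same way in both genotype comparisons in granule, CA1, CA3 or inhibitory neurons. Over all genes 1.19%, 1.56%, 0.74% and 0.794% were so on the higher side in those classes, and 0.252%, 0.26%, 0.335% and 0.191% on the lower. For exercise the only such member in these classes was Kcnc4 in inhibitory neurons, 1 of 33 (0.337% of all genes). It had 15.7 CPM in KI-EX, 5.88 CPM in KI-noEX, 10.4 CPM in WT-EX and 6.91 CPM in WT-noEX, and its ratio in WT was 0.59 (95% interval -0.048 to 1.23), an interval that includes 0, and 0.16 with no doublets left out. In oligodendrocytes Kcnk2 was past the fold for genotype in both states, with 18.0 CPM in KI-EX, 18.3 CPM in KI-noEX, 11.98 CPM in WT-EX and 9.14 CPM in WT-noEX, as 1 of 23 members (0.606% of all genes). Its ratio with exercise was 0.59 (95% interval -0.23 to 1.498), barely past the fold and with an interval that includes 0, and the WT-EX value rests on 15 UMIs. In microglia Kcnh7 was so too, with 393 CPM in KI-EX, 489 CPM in KI-noEX, 191 CPM in WT-EX and 248 CPM in WT-noEX, and the WT-EX value rests on 14 UMIs. It was 1 of 11 members there, where all genes gave 3.34%.

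Sums over a family follow the members with the most counts. The 14 Kcnk genes together held 355 CPM in KI-EX, 339 CPM in KI-noEX, 303 CPM in WT-EX and 332 CPM in WT-noEX in granule neurons, and the 4 Kcnn genes 534 CPM in KI-EX, 539.7 CPM in KI-noEX, 523 CPM in WT-EX and 533 CPM in WT-noEX in CA1 neurons. The Kcnd sum was lower in KI-EX, at 3712 CPM in KI-EX, 4535 CPM in KI-noEX, 4698 CPM in WT-EX and 4833 CPM in WT-noEX in granule neurons, and this sum is mostly Kcnd2. In inhibitory neurons the Kcnd sum was highest in KI-EX, with 1817 CPM in KI-EX, 1385 CPM in KI-noEX, 1778 CPM in WT-EX and 1672 CPM in WT-noEX. Over granule, CA1, CA3 and inhibitory neurons the Kcnk sum was highest and the Kcnt sum lowest in KI-EX in all 4, the Kcnt sum with 281 CPM in KI-EX, 439.8 CPM in KI-noEX, 383 CPM in WT-EX and 380.0 CPM in WT-noEX in CA3 neurons. In inhibitory neurons the Kcnt sum was nearly the same in KI-EX and WT-EX, at 306 CPM and 309 CPM.

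The channels work with accessory subunits, and 41 of a list of 42 genes for beta, KChIP, DPP, silent alpha, BK and scaffold subunits were in the files. For exercise in the knock-in the counts past the fold were 14 of 29 on the higher and 1 on the lower side in granule neurons (median 0.48), 12 of 27 on the higher and 1 on the lower side in CA1 neurons (median 0.48), 9 of 24 on the higher and 3 on the lower side in CA3 neurons (median 0.37), and 11 of 23 on the higher and 0 on the lower side in inhibitory neurons (median 0.52). All genes gave 22.5% and 19.6%, 25.8% and 16.7%, 27.5% and 15%, and 23.7% and 16.2% in that order. For genotype with exercise the accessory counts were 15 of 28 on the higher and 0 on the lower side in granule neurons (median 0.59), 12 of 27 on the higher and 2 on the lower side in CA1 neurons (median 0.45), 7 of 24 on the higher and 2 on the lower side in CA3 neurons (median 0.25), and 7 of 24 on the higher and 2 on the lower side in inhibitory neurons (median 0.29). All genes gave 22.4% and 7.58%, 28.7% and 5.83%, 26.2% and 5.52%, and 24.3% and 5.17% in that order. Kcnip2 and Kcnip3, which bind Kcnd channels, Dpp6, their membrane partner, Kcnab2, a Kcna beta subunit, Kcnu1, a pore gene of the BK-type family, and the scaffold gene Dlg4 were past the fold on the higher side in all 4 classes for exercise in the knock-in, as 6 of 22 (14.5% of all genes were). Dpp6 had 1356 CPM in KI-EX, 816 CPM in KI-noEX, 1007 CPM in WT-EX and 1019 CPM in WT-noEX in CA1 neurons, while Kcnd2, the channel it serves, was lowest in KI-EX there. Genotype without exercise had 1 of 27 on the higher and 4 on the lower side in granule neurons (median -0.15), 1 of 28 on the higher and 5 on the lower side in CA1 neurons (median -0.21), 1 of 25 on the higher and 5 on the lower side in CA3 neurons (median -0.22), and 0 of 24 on the higher and 5 on the lower side in inhibitory neurons (median -0.19). All genes gave 13.8% and 6.8%, 13% and 10.2%, 10.4% and 14.7%, and 12.5% and 7.77% in that order. Exercise in WT had 0 of 27 on the higher and 4 on the lower side in granule neurons (median -0.14), 0 of 28 on the higher and 4 on the lower side in CA1 neurons (median -0.12), 4 of 25 on the higher and 1 on the lower side in CA3 neurons (median -0.042), and 0 of 24 on the higher and 1 on the lower side in inhibitory neurons (median 0.0018). All genes gave 2.13% and 6.57%, 1.18% and 9.39%, 1.75% and 11.2%, and 1.82% and 8.34% in that order.

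Gene length moved with these ratios, in a direction that differed between comparisons. The member genes span 1.90 to 514 kb. For exercise in the knock-in, members under 100 kb had a median log2 ratio of 0.63, 0.84, 0.83 and 0.78 in granule, CA1, CA3 and inhibitory neurons, and members of 100 kb or more had 0.050, -0.099, -0.066 and 0.0069. No member under 100 kb was past the fold on the lower side in any of the 4 classes. Across members, Spearman's rho of length with the ratio was -0.31 (n = 37), -0.46 (n = 38), -0.39 (n = 33) and -0.30 (n = 33) in that order. Over all genes it was 0.28, 0.16, 0.065 and 0.19, opposite in sign to the members. For genotype with exercise the member values were -0.28, -0.54, -0.50 and -0.40, where all genes gave 0.020, -0.15, -0.27 and -0.20, of the same sign as the members except in granule neurons. For genotype without exercise the member values were positive, at 0.13, 0.22, 0.33 and 0.23, where all genes gave -0.31, -0.23, -0.14 and -0.28. For exercise in WT the member values were 0.059, 0.45, 0.52 and 0.31, where all genes gave 0.18, 0.27, 0.35 and 0.31. These are descriptions over genes that share 2 libraries, and the part of length in the group differences was not tested.

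**Figure D5:**
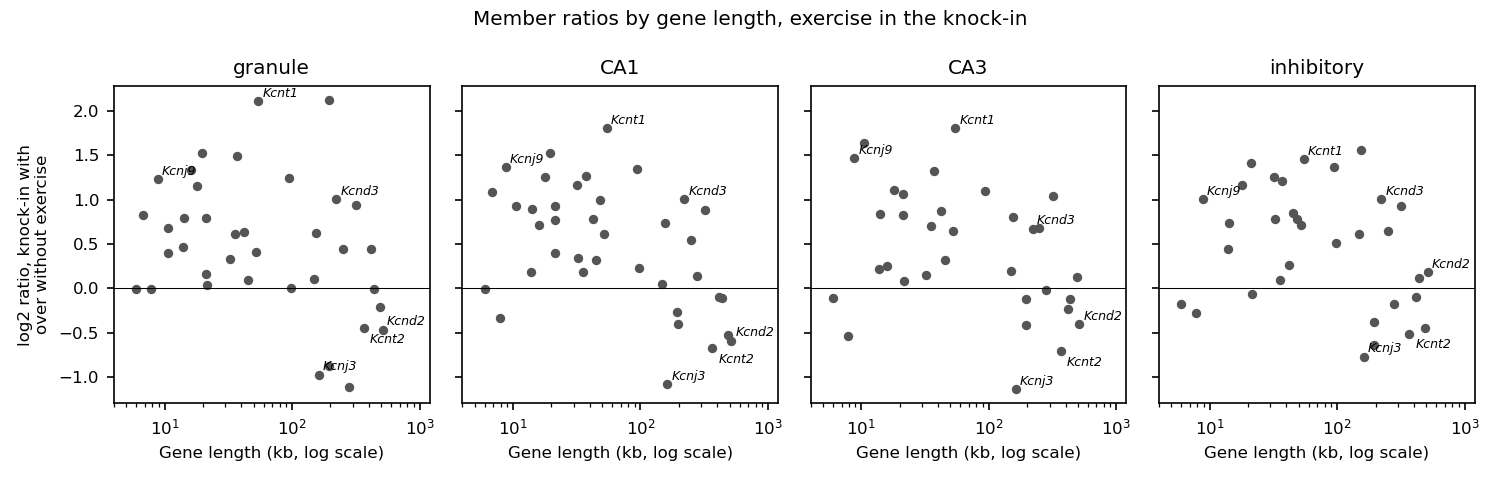
Log2 ratio of KI-EX over KI-noEX for each measured member against its gene length in kb on a log axis, in granule, CA1, CA3 and inhibitory neurons. Members under 100 kb had medians of 0.63 to 0.84 and longer members medians near 0, with Kcnj3 among the lowest.

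RNA of some other classes also moved with KI-EX. In CA1 neurons the summed inhibitory markers were 133 CPM in KI-EX, 29.9 CPM in KI-noEX, 29.0 CPM in WT-EX and 58.4 CPM in WT-noEX, and the summed granule markers 129 CPM in KI-EX, 53.6 CPM in KI-noEX, 39.9 CPM in WT-EX and 54.7 CPM in WT-noEX. Other lists differed there. Astrocyte markers were lowest in KI-EX (553 CPM, against 791 in KI-noEX, 710 in WT-EX and 717 in WT-noEX). Choroid plexus markers were highest in KI-noEX (50.5 CPM, against 11.1 in KI-EX). The CA1 neurons' own markers were highest in KI-EX, at 689 CPM in KI-EX, 483 CPM in KI-noEX, 526 CPM in WT-EX and 604 CPM in WT-noEX. Inhibitory neurons had a lower sum of their own markers in KI-EX, at 5732 CPM in KI-EX, 8404 CPM in KI-noEX, 8727 CPM in WT-EX and 9339 CPM in WT-noEX. When each nucleus was thinned to 1500 UMIs, the member medians for exercise in the knock-in became 0.30 in CA1 and 0.24 in inhibitory neurons. These medians are over the members that still met the minimum of UMIs, and those of all genes were not recalculated. The part of depth and of other classes' RNA in the differences named above was not tested.

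The same comparisons were made in oligodendrocytes and astrocytes. In oligodendrocytes, genotype with exercise had 22 of 28 on the higher and 0 on the lower side (all genes 21.4% and 11.9%), and exercise in the knock-in had 18 of 30 on the higher and 2 on the lower side (all genes 23.9% and 22.8%). Genotype without exercise had 2 of 24 on the higher and 13 on the lower side (all genes 14.4% and 14.4%), and exercise in WT had 0 of 20 on the higher and 7 on the lower side (all genes 2.3% and 10.5%). In astrocytes the counts were 9 of 13 on the higher and 0 on the lower side (all genes 19.5% and 14.5%) for genotype with exercise, 9 of 11 on the higher and 0 on the lower side (all genes 38.6% and 11.5%) for exercise in the knock-in, 1 of 13 on the higher and 8 on the lower side (all genes 11.5% and 26.6%) for genotype without exercise and 0 of 17 on the higher and 5 on the lower side (all genes 4.28% and 8.35%) for exercise in WT. Members with a higher level in neurons were among those counted. Kcnd2 in oligodendrocytes had 1387 CPM in KI-EX, 323 CPM in KI-noEX, 428 CPM in WT-EX and 724 CPM in WT-noEX, and Kcnj6 had 135 CPM in KI-EX, 33.8 CPM in KI-noEX, 31.2 CPM in WT-EX and 53.7 CPM in WT-noEX. The summed CA3 markers in the same nuclei, given above, were also highest in KI-EX, as were subicular (72.4 CPM) and CGE-type (502 CPM) markers. Other neuronal lists differed. Granule markers were highest in WT-EX (926 CPM, against 794 in KI-EX) and inhibitory markers in WT-noEX (2072 CPM, against 1771 in KI-EX). CA1 markers were highest in KI-noEX (149 CPM, against 136 in KI-EX). The part of RNA from neurons in these levels was not tested. The 3 members with oligodendrocytes as top class stayed under the fold between the knock-in libraries. Kcna1 gave a ratio of -0.41 (95% interval -0.57 to -0.25) and Kcna6 of 0.44 (95% interval 0.22 to 0.66) for KI-EX over KI-noEX, and Kcnk13 gave 0.22 (95% interval 0.060 to 0.39). For genotype with exercise their ratios were -0.32 (95% interval -0.51 to -0.12), -0.070 (95% interval -0.30 to 0.17) and -0.53 (95% interval -0.69 to -0.36). By the levels given above, Kcna6 and Kcnk13 were past the fold on the lower side for genotype without exercise, and Kcna1 was under it. All 3 were under the fold for exercise in WT. Kcnn3 in astrocytes, whose nuclei numbered 104 in KI-EX and 64 in KI-noEX, had a ratio of 1.08 with an interval of 0.17 to 2.10.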

How the data were processed

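The study measured RNA in single nuclei of mouse hippocampus, with 1 library in each of 4 groups, made with a droplet kit (10x Chromium 3′, version 3.1) per the labels' protocols. The deposited values are whole-number UMI counts per gene and barcode without normalization. Per the submitters' processing notes they were made with Cell Ranger 3.1.0 on mm10, whereas the matrix headers name version 5.0.1. The use of introns and of strand in the counting was not given in the sources used here, and reads of overlapping genes may be mixed.

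Nuclei were kept from 500 genes and 1000 UMIs upwards, if mitochondrial UMIs made up less than 5%. Doublets were scored against simulated pairs, and 5.51% to 8.98% of nuclei were left out, with 35.9% to 60.0% of the simulated pairs above the limit, so doublets remain. Clustering used 2000 variable genes without the members, 30 components, 15 neighbours and Leiden resolution 1.0 (umap-learn 0.5.12, leidenalg 0.10.2, scikit-learn 1.9.0), without integration, and gave 30 clusters, of which 9 (4390 nuclei) met no rule for a name and stayed outside the 12 classes. Nuclei above 3 times the median UMIs of their class were left out of its sums, a limit chosen after seeing the data.

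From the deposited counts, class sums gave CPM with exact Poisson 95% intervals and log2 ratios with exact conditional binomial intervals (SciPy 1.17.1, NumPy 2.4.6, Python 3.11.15), which cover counting error only. TMM factors came from edgeR 4.0.16 in R 4.3.3. The ratio interval was tested on simulated counts. Of the 32285 gene identifiers, 32235 matched GENCODE M21, which gave coordinates on GRCm38. No test between groups was made.

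Members were named across classes where they had at least 1000 UMIs over the kept nuclei, and in glial and vascular classes where they had at least 50. Per comparison and neuron class, the text names the 3 highest and 3 lowest ratios among members past 1.5-fold with at least 100 UMIs over both libraries, and every member past the fold the same way in both genotype or both exercise comparisons. Members outside this rule that the text names (among them Kcnj6, Kcnd3 and Kcnh3 for exercise in the knock-in) were chosen after their values were seen. Results of 2 members are not reported by name here, although counts and medians include both. The members, the accessory list, the comparisons and most alternatives were chosen with earlier results of these data known. Alternatives covered scaling, the minimum of UMIs, filters, doublets, clustering and depth.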

Additional observations from a re-analysis of the deposited data

Results flagged for a closer look

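The exercise difference of the members pointed in opposite directions in the 2 genotypes. The median log2 ratio of members with over without exercise was 0.44 in the knock-in and -0.20 in WT in granule neurons, a difference of 0.65. It was 0.58 in the knock-in and -0.16 in WT in CA1 neurons, a difference of 0.74. CA3 neurons had 0.32 in the knock-in and -0.084 in WT, a difference of 0.41, and inhibitory neurons 0.62 in the knock-in and -0.062 in WT, a difference of 0.68. Each side is 1 pair of libraries, the difference was not tested, and library and group cannot be told apart. The medians over all genes differed in sign as well, with 0.094 in the knock-in and -0.12 in WT in granule neurons. In CA1, CA3 and inhibitory neurons the WT side of the difference changed sign with the scaling, and the medians over all genes were not recalculated.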

How the results depend on the processing

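Every value rests on 1 library per group, so depth and counting limit precision only within a library, and no alternative bears on the spread between animals. No paired analysis was possible because each group had 1 library and no result comes from a test. The member medians in the 4 neuron classes kept their direction and were classed as unmoved in 171 of 188 recalculations. The counts past the fold (both directions together) stayed within 1.5 times of those reported in 151 of 188. The classing of medians did not follow a fixed size of shift, and medians classed as unmoved could shift widely. Shares and medians of all genes were not recalculated under any alternative, whereas a change of scaling factor shifts every gene of a class alike. With TMM factors the median for genotype with exercise went from 0.52 to 0.26 in CA1 and from 0.21 to 0.0057 in CA3 neurons. For exercise in WT it went from -0.16 to -0.011 in CA1 neurons. The values classed as moved or changed in sign are these, with classes named by their neurons. With TMM factors the member medians were 0.062 in inhibitory for genotype with exercise, 0.38 in granule for exercise in the knock-in, and 0.014 in inhibitory and 0.064 in CA3 for exercise in WT, while counts were 10 in granule for genotype with exercise, and 2 in CA1 for exercise in WT. With median-of-ratios factors the member medians were 0.020 in inhibitory and -0.012 in CA3 for genotype with exercise, 0.40 in granule for exercise in the knock-in, and 0.051 in inhibitory, 0.089 in CA3 and 0.013 in CA1 for exercise in WT, while counts were 14 in CA1 and 11 in granule for genotype with exercise, 7 in CA3 for genotype without exercise, and 1 in CA1 and 2 in granule for exercise in WT. With a total that left out mitochondrial genes and the 50 highest genes the member medians were 0.31 in granule for exercise in the knock-in, while counts were 7 in CA3 for genotype without exercise, and 1 in CA3 and 3 in CA1 for exercise in WT. With no minimum of UMIs the counts were 21 in inhibitory and 16 in CA3 for genotype with exercise, 16 in inhibitory, 11 in CA1 and 13 in granule for genotype without exercise, 29 in inhibitory for exercise in the knock-in, and 6 in inhibitory, 7 in CA3, 14 in CA1 and 8 in granule for exercise in WT. With a minimum of 200 UMIs the member medians were 0.33 in CA1 for exercise in the knock-in, while counts were 5 in inhibitory and 4 in CA1 for genotype without exercise, and 0 in inhibitory, 1 in CA3 and 2 in granule for exercise in WT. With at least 1000 genes per nucleus the counts were 1 in CA3 for exercise in WT. At clustering resolution 2.0 the counts were 7 in CA3 for genotype without exercise. With the members allowed among the variable genes the counts were 1 in inhibitory and 1 in CA3 for exercise in WT. With nuclei thinned to 1500 UMIs the member medians were 0.063 in inhibitory for genotype with exercise, 0.045 in CA3 for genotype without exercise, 0.24 in inhibitory and 0.30 in CA1 for exercise in the knock-in, and 0.023 in CA3 for exercise in WT, while counts were 6 in inhibitory and 5 in CA3 for genotype with exercise, 5 in inhibitory for genotype without exercise, 7 in inhibitory and 10 in CA3 for exercise in the knock-in, and 0 in inhibitory, 1 in CA3 and 1 in CA1 for exercise in WT. The changes of sign are 8 of these medians, each within 0.1 of 0, and the cause was not tested. Fewer members were measured after thinning, because the minimum of 50 UMIs was kept. None of the log2 ratios of the members named for a comparison changed sign in 640 recalculations, and 548 stayed within their counting interval. Those near the fold went under it under some settings: Kcna4 in CA3 and Kcnk4 in CA3 neurons, Kcnd2 in CA1, Kcnh7 in CA1, Kcnt2 in CA3, Kcnj3 in CA3 and inhibitory neurons, and Kcnc2, Kcnc4, Kcnd1, Kcnh3, Kcnh4 and Kcnt1 for exercise in WT. With no doublets left out the CA3 clusters stayed unnamed and gave no value, and Kcnt1 in CA3 neurons gave none in 2 comparisons with more variable genes. Settings of filter and clustering also changed which nuclei made up CA3 neurons. The alternative without an upper limit on UMIs per nucleus was chosen after seeing the data, as was that limit. No median or count was classed as moved under that alternative. CPM levels of members were recalculated only in their highest class among granule, CA1, CA3 and inhibitory neurons. There 363 of 1384 values left their counting interval, 136 of them with the total that left out mitochondrial genes and the 50 highest genes. Levels in CA2, subicular and Cajal-Retzius neurons and in glial and vascular classes were not recalculated.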
